A study of Mus musculus with 12 samples.

Results

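The genes described here are 32 genes of the MYC network and of ribosome biogenesis, out of 23420 genes counted in mouse liver RNA. They are Myc and 3 genes of its partners and antagonists, 4 growth and metabolic genes known as MYC targets, the 2 genes of the mitochondrial chaperonin, and 22 genes of nucleolar scaffolds, small nucleolar ribonucleoproteins (snoRNPs), RNA polymerase I and ribosome assembly. They were taken by symbol from a list of names, which was drawn up with earlier results of these data known. All 32 were found and passed the filter on low counts in each comparison. The lowest count of any of them was 21, for Myc in Tsc1/p62Δhep library 1.

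The samples were 12 liver RNA libraries from C57BL/6 mice, in 4 groups of 3. In Tsc1/p62Δhep mice both Tsc1 and Sqstm1, the gene of p62, were floxed and were deleted by Alb-Cre, and in Tsc1Δhep mice only Tsc1 was floxed, with the same Cre. In p62Δhep mice Sqstm1 was floxed and deleted by Alb-Cre, and p62F/F mice carried the floxed Sqstm1 alleles without Cre. The albumin promoter drives Cre in hepatocytes, so the other liver cells keep both genes. The first pair of groups was deposited in 1 table of counts and the second pair in another, which asks what losing p62 does with and without Tsc1 in the hepatocyte. p62F/F alone lacked Cre, so in p62Δhep against p62F/F an effect of Cre and one of p62 loss cannot be told apart. The sources used here give no age, and low-fat and high-fat diets are named without the samples they were given to. No label tells tumour from other liver, and the deposited name of the table of Tsc1/p62Δhep and Tsc1Δhep holds the word NORMAL, unexplained. Whether each library is from a different animal is not stated by the labels, and p-values measure only the spread between these libraries, which may be technical.

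MYC is a transcription factor that pairs with MAX and binds E-box DNA, most strongly the letters CACGTG. MXD proteins pair with MAX as well and repress genes at the same letters. Among the best known targets of MYC are genes of ribosome biogenesis, in which RNA polymerase I makes the ribosomal RNA precursor in the nucleolus, snoRNPs guide its methylation and pseudouridylation, and assembly factors build the small and large subunits. Ribosome production is also driven by the growth kinase mTORC1, which the TSC1 protein helps to restrain. In the liver, MYC is low at rest and is induced by partial hepatectomy and in tumours.

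The promoters of 5 of these genes are shown, picked by their values below. Nop56 and Nop58 carry no E-box in the window searched and changed most after Myc in Tsc1/p62Δhep against Tsc1Δhep. Ldha, Nop2 and Mxd4 carry the E-box, in capitals, and did not pass the test in either comparison of 2 groups. The 5 do not stand for the rest. Cad, Odc1 and Dkc1 also carry no E-box in the window searched and did not pass. Mybbp1a and Pes1 carry it and were lower without overlap in Tsc1/p62Δhep against Tsc1Δhep. A link between the E-box and a change was not tested. Each sequence is a stretch upstream of the gene's start from RefSeq, assembly GRCm38.p6, written 5′ to 3′ on the gene's own strand.
Nop56, chr2:130274212-130274376, plus strand: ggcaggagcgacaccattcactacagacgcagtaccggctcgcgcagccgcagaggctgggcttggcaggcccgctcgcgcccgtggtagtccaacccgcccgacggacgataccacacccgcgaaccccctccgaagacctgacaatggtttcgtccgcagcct
Nop58, chr1:59684806-59684970, plus strand: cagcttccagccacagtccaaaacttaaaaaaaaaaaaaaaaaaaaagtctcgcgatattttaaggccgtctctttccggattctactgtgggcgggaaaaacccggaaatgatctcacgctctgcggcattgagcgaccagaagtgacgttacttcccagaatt
Ldha, chr7:46845634-46845786, plus strand: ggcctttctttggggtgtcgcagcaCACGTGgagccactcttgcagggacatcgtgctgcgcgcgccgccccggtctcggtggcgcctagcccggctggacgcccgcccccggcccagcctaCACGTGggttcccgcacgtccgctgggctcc
Nop2, chr6:125131798-125131853, plus strand: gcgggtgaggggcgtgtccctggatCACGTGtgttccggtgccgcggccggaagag
Mxd4, chr5:34187899-34187954, minus strand: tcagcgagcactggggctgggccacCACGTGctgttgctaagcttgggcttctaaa

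A RefSeq window of 250 bases before to 50 after the start was found for 25 of the 32 genes. The letters CACGTG, which read the same on both strands, were in the window of 9 of the 25, or 36%, namely Hspd1, Ldha, Max, Mxd4, Mybbp1a, Nop2, Pes1, Utp20 and Wdr43. They were in 8.09% of the windows of all 27025 genes and in 11.7% of those of the 9877 genes that had a window and entered the tests. The related letters CACGCG, searched on both strands and sharing no match with CACGTG, were in 8 of the 25 windows, or 32%, against 10.5% of all windows and 19.2% of those of tested genes. Promoter GC content was alike, with a median of 62.7% in the 25 windows and 61.7% in those of tested genes. Hspd1 and Hspe1 lie head to head. Of the 2 windows of Hspd1, the one with CACGTG shares 4 bases with that of Hspe1 and the other shares 285. A match is a run of letters and says nothing of what was bound there, and the absence of one holds only for the window searched.

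Library totals were 15792048 to 33377247 counts. Levels below are CPM, counts scaled to the library size, after scaling all 12 libraries by TMM, as mean ± SD with n = 3. Sqstm1 stood at 14.0 to 19.1 CPM in Tsc1/p62Δhep and 771 to 1167 CPM in Tsc1Δhep, and at 12.7 to 20.4 CPM in p62Δhep and 327 to 358 CPM in p62F/F. Tsc1 was at 9.12 to 13.3 CPM in Tsc1/p62Δhep and 5.27 to 10.6 CPM in Tsc1Δhep, against 26.9 to 41.0 CPM in p62Δhep and 29.2 to 35.6 CPM in p62F/F. These values go with the labels. Of the marker lists, that of hepatocytes summed to 92300 to 121627 CPM in Tsc1/p62Δhep and 31676 to 62871 CPM in Tsc1Δhep, and no marker of the 10 lists was at 0 in every library of a group.

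In livers without Tsc1, removing p62 as well lowered Myc and a pair of genes for core proteins of the box C/D snoRNP, Nop56 and Nop58. Of the 32 genes, 3 fell and none rose at an adjusted p below 0.05 (quasi-likelihood test of edgeR, Benjamini-Hochberg adjustment over 12620 genes), and DESeq2 called the same number in each direction. The background is large here, since 24.2% of all genes tested passed, 9.25% higher and 14.9% lower, and 29.7% passed by DESeq2. At 3 of 32 the share of these genes that passed, 9.38%, was below it. At an unadjusted p below 0.05 there were 8 of the 32, beside 39.7% of all genes, each with a log2 fold change below 0. The median log2 fold change of the 32 genes was -0.17, beside -0.05 for all genes, with 14 above 0 and 18 below, where 47.8% of all genes were above 0. The median of the 32 was -0.26 when Tsc1/p62Δhep library 3 was left out, -0.09 when library 2 of that group was, and -0.07 when Tsc1Δhep library 3 was. In a piece of liver, fewer cells of a type and less RNA per cell cannot be told apart.

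Myc itself stood at 1.44, 1.66 and 3.42 CPM in Tsc1/p62Δhep libraries 1 to 3, against 14.2, 20.2 and 8.05 CPM in Tsc1Δhep. The groups did not overlap, and the level in Tsc1/p62Δhep library 3 was above the other two of its group while that in Tsc1Δhep library 3 was the lowest of its own. The log2 fold change was -2.70 ± 0.48 (SE), a 6.51-fold lower level, with an adjusted p of 0.00769 by edgeR. Myc kept its call without each library in turn, with adjusted p-values of 0.00328 to 0.0443, and under each of the 17 alternatives run.

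The partners and antagonists of MYC lay the other way without passing the test. Max, whose protein is the obligate partner, was at 22.4, 19.9 and 25.1 CPM in Tsc1/p62Δhep and 18.6, 18.1 and 14.4 CPM in Tsc1Δhep, with a log2 fold change of 0.40 ± 0.22 and an adjusted p of 0.205 by edgeR. Mxd4, a repressor that pairs with MAX, was at 33.9, 33.6 and 26.8 CPM in Tsc1/p62Δhep and 13.2, 24.7 and 24.1 CPM in Tsc1Δhep (log2 fold change 0.61 ± 0.28, adjusted p 0.15 by edgeR). For both genes every Tsc1/p62Δhep library was above every Tsc1Δhep library after TMM scaling. With library totals in place of TMM, both genes overlapped between the groups. Mxd1, another such repressor, overlapped between the groups, at 11.7 ± 1.09 CPM in Tsc1/p62Δhep and 9.20 ± 2.11 CPM in Tsc1Δhep, with a log2 fold change of 0.34 by TMM and -0.02 by library totals.

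**Figure D1:**
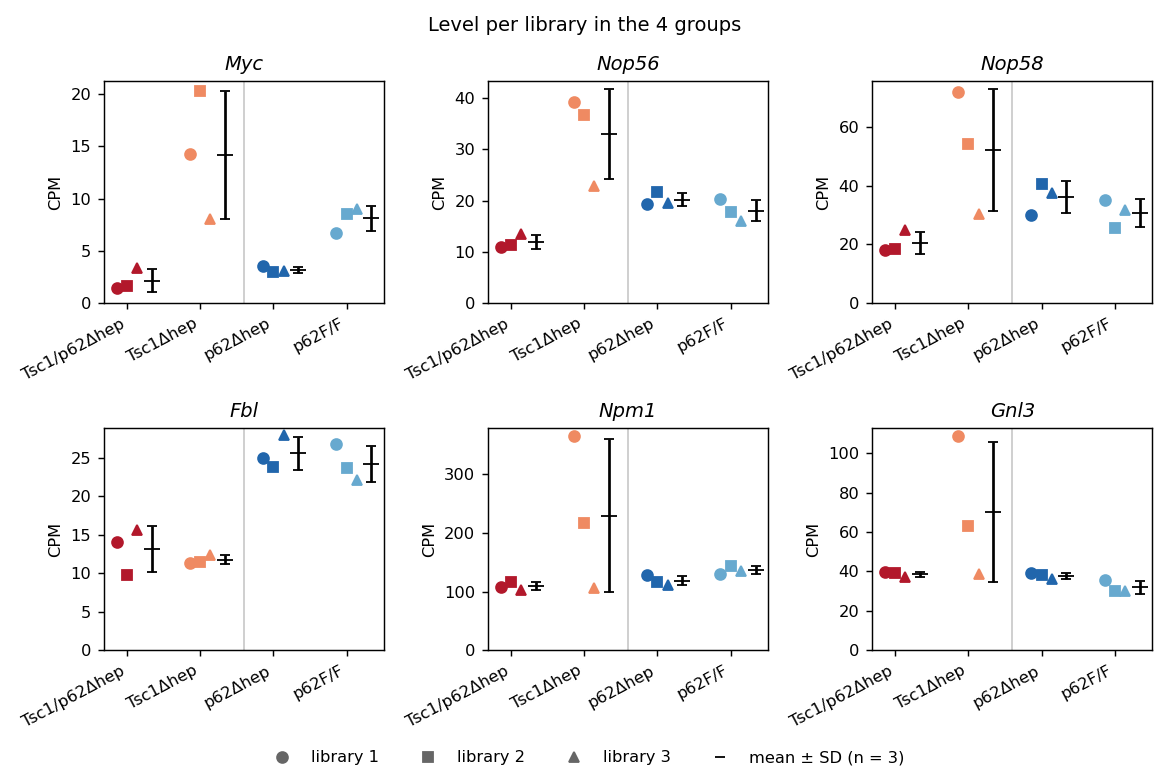
Levels in CPM (vertical axis from 0) of 6 genes in each of the 12 libraries, by group. Circles, squares and triangles are libraries 1, 2 and 3 of a group, the horizontal bar with whiskers is the mean ± SD of 3 libraries, and the grey line separates the 2 tables. Myc, Nop56 and Nop58 do not overlap between Tsc1/p62Δhep and Tsc1Δhep, Fbl does, and for Npm1 and Gnl3 the Tsc1Δhep libraries spread from 107 to 365 CPM and from 38.5 to 109 CPM.

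Of the 5 snoRNP genes, Nop56 and Nop58 passed the test and Fbl, Dkc1 and Rrp9 did not. NOP56 and NOP58 form the core that holds a box C/D snoRNA together with the methyltransferase fibrillarin, the product of Fbl, and the RNA-binding protein SNU13, whose gene is listed under its older symbol Nhp2l1. Nop56 stood at 10.9, 11.4 and 13.5 CPM in Tsc1/p62Δhep, against 39.2, 36.7 and 22.9 CPM in Tsc1Δhep. Nop58 stood at 18.2, 18.3 and 24.8 CPM in Tsc1/p62Δhep, against 71.7, 54.0 and 30.4 CPM in Tsc1Δhep. Neither gene overlapped between the groups, and for both genes library 3 was the nearest to the other group in each group.

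Nop56 fell 2.76-fold, a log2 fold change of -1.46 ± 0.27 (adjusted p 0.00878 by edgeR), and Nop58 fell 2.55-fold, a log2 fold change of -1.35 ± 0.33 (adjusted p 0.0253 by edgeR). Both calls were lost without library 1 or library 2 of Tsc1/p62Δhep. In these fits 1111 and 1182 of all genes were called, rather than 3053. Without Tsc1/p62Δhep library 1 the adjusted p of edgeR was 0.0555 for Nop56 and 0.110 for Nop58. Without library 2 of that group it was 0.0519 for Nop56 and 0.107 for Nop58. The Nop58 call was also lost without Tsc1/p62Δhep library 3, at an adjusted p of 0.0552, and without Tsc1Δhep library 2, at 0.0774. Over all fits without 1 library, the log2 fold changes were -1.65 to -1.31 for Nop56 and -1.60 to -1.03 for Nop58.

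Fbl stood at 14.0, 9.81 and 15.6 CPM in Tsc1/p62Δhep and 11.3, 11.5 and 12.4 CPM in Tsc1Δhep, with a log2 fold change of 0.16 ± 0.25 by TMM and -0.20 by library totals (adjusted p 0.662 by edgeR with TMM). The Tsc1/p62Δhep values lay on both sides of those of Tsc1Δhep. Whether Nop56 and Fbl differ in their response was not tested. Dkc1, the pseudouridine synthase of the box H/ACA particle, was at 26.2 ± 0.601 CPM in Tsc1/p62Δhep and 24.7 ± 4.03 CPM in Tsc1Δhep, and Rrp9, a protein of the U3 snoRNP, at 8.48 ± 0.472 CPM in Tsc1/p62Δhep and 10.9 ± 2.84 CPM in Tsc1Δhep, neither past the test. A short overlap of exons on opposite strands, of 5 bases, joins Nop56 to Idh3b, and the sources used here do not give strand use in counting.

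Further proteins of these particles, from a list of 13 box C/D and H/ACA genes not among the 32, included 3 that fell. Nhp2l1 was at 2.47, 3.31 and 3.04 CPM in Tsc1/p62Δhep and 9.74, 7.65 and 4.43 CPM in Tsc1Δhep (log2 fold change -1.31 ± 0.36, adjusted p 0.0369 by edgeR). Nhp2, of the H/ACA particle, was at 18.7, 18.7 and 24.8 CPM in Tsc1/p62Δhep and 97.9, 76.1 and 44.7 CPM in Tsc1Δhep (log2 fold change -1.82 ± 0.32, adjusted p 0.00750 by edgeR). Rpap3, a cofactor of the R2TP chaperone that helps to assemble snoRNPs, was at 9.67, 9.62 and 9.56 CPM in Tsc1/p62Δhep and 25.1, 21.1 and 21.4 CPM in Tsc1Δhep (log2 fold change -1.23 ± 0.21, adjusted p 0.00656 by edgeR). None of the 3 overlapped between the groups, which adds little since they were named for passing the test. Of the 13 genes, 9 did not overlap, 2 higher and 7 lower, or 69.2% beside 45.8% of all genes. The list's median log2 fold change was -0.46, and its share called, 23.1%, was near the 24.2% of all genes.

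The nucleolar scaffold genes gave no call. Npm1, the gene of the abundant nucleolar protein nucleophosmin, was at 108, 117 and 103 CPM in Tsc1/p62Δhep and 365, 216 and 107 CPM in Tsc1Δhep. Its lowest Tsc1Δhep library lay within the range of Tsc1/p62Δhep, and the log2 fold change of -1.07 ± 0.41 had an adjusted p of 0.0964 by edgeR. Ncl, the gene of nucleolin, was at 264, 258 and 285 CPM in Tsc1/p62Δhep and 219, 156 and 276 CPM in Tsc1Δhep, with overlap and a log2 fold change of 0.31 ± 0.26. Mybbp1a, which encodes a nucleolar binding protein of MYB, did not overlap, at 47.4 ± 4.69 CPM in Tsc1/p62Δhep and 66.3 ± 9.30 CPM in Tsc1Δhep (adjusted p 0.114 by edgeR). Nolc1, a chaperone of snoRNPs, was at 35.0 ± 7.65 CPM in Tsc1/p62Δhep and 37.5 ± 3.68 CPM in Tsc1Δhep.

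Of the 8 large subunit genes, 6 had log2 fold changes below 0 by TMM and all 8 by library totals, and none passed by TMM. Bop1 and Pes1, whose proteins form the PeBoW complex with WDR12, did not overlap between groups. Bop1 was at 27.2, 26.3 and 31.9 CPM in Tsc1/p62Δhep and 40.3, 43.0 and 40.5 CPM in Tsc1Δhep (log2 fold change -0.54 ± 0.19, adjusted p 0.0721 by edgeR). Pes1 was at 31.5, 32.3 and 27.8 CPM in Tsc1/p62Δhep and 52.0, 43.8 and 38.7 CPM in Tsc1Δhep (log2 fold change -0.56 ± 0.20, adjusted p 0.0831 by edgeR). The highest over the lowest Tsc1Δhep library of Bop1 gave a ratio of 1.06, the narrowest of the 32 genes in that group. Wdr12, the gene of the third subunit, overlapped, at 16.7 ± 3.41 CPM in Tsc1/p62Δhep and 22.5 ± 3.78 CPM in Tsc1Δhep.

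Gnl3, the gene of nucleostemin, a GTPase of proliferating cells, was at 39.6, 39.0 and 37.0 CPM in Tsc1/p62Δhep and 109, 63.0 and 38.5 CPM in Tsc1Δhep. The third Tsc1Δhep library overlapped the other group, and the adjusted p was 0.117 by edgeR. The rRNA methyltransferase gene Nop2, the assembly factor genes Nop16 and Rrs1, and Pa2g4, which encodes a ribosome-associated protein, had log2 fold changes of -0.26 to 0.14. The 3 genes of small subunit assembly also overlapped between groups, with log2 fold changes of -0.35 for Wdr43, 0.07 for Rrp12 and 0.32 for Utp20. Of the RNA polymerase I subunit genes, Polr1a had a log2 fold change of -0.21 ± 0.42 and Polr1b one of 0.24 ± 0.23.

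None of the growth and metabolic targets passed. Srm, of spermidine synthesis, was at 26.9, 24.3 and 32.9 CPM in Tsc1/p62Δhep and 39.4, 45.4 and 32.6 CPM in Tsc1Δhep (log2 fold change -0.48 ± 0.22, adjusted p 0.143 by edgeR), with 1 library of each group crossing over. Odc1, the first enzyme of polyamine synthesis, was at 51.1 ± 11.7 CPM in Tsc1/p62Δhep and 48.7 ± 10.9 CPM in Tsc1Δhep. Cad, which starts pyrimidine synthesis, was at 9.94 ± 3.96 CPM in Tsc1/p62Δhep and 12.5 ± 6.10 CPM in Tsc1Δhep. Ldha, lactate dehydrogenase, was at 485 ± 211 CPM in Tsc1/p62Δhep and 434 ± 139 CPM in Tsc1Δhep. Of the chaperonin, Hspd1 was at 389 ± 22.0 CPM in Tsc1/p62Δhep and 381 ± 57.0 CPM in Tsc1Δhep. Its cofactor Hspe1 was at 55.1 ± 16.7 CPM in Tsc1/p62Δhep and 86.7 ± 45.9 CPM in Tsc1Δhep, where its 3 libraries stood at 128, 94.6 and 37.4 CPM.

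**Figure D2:**
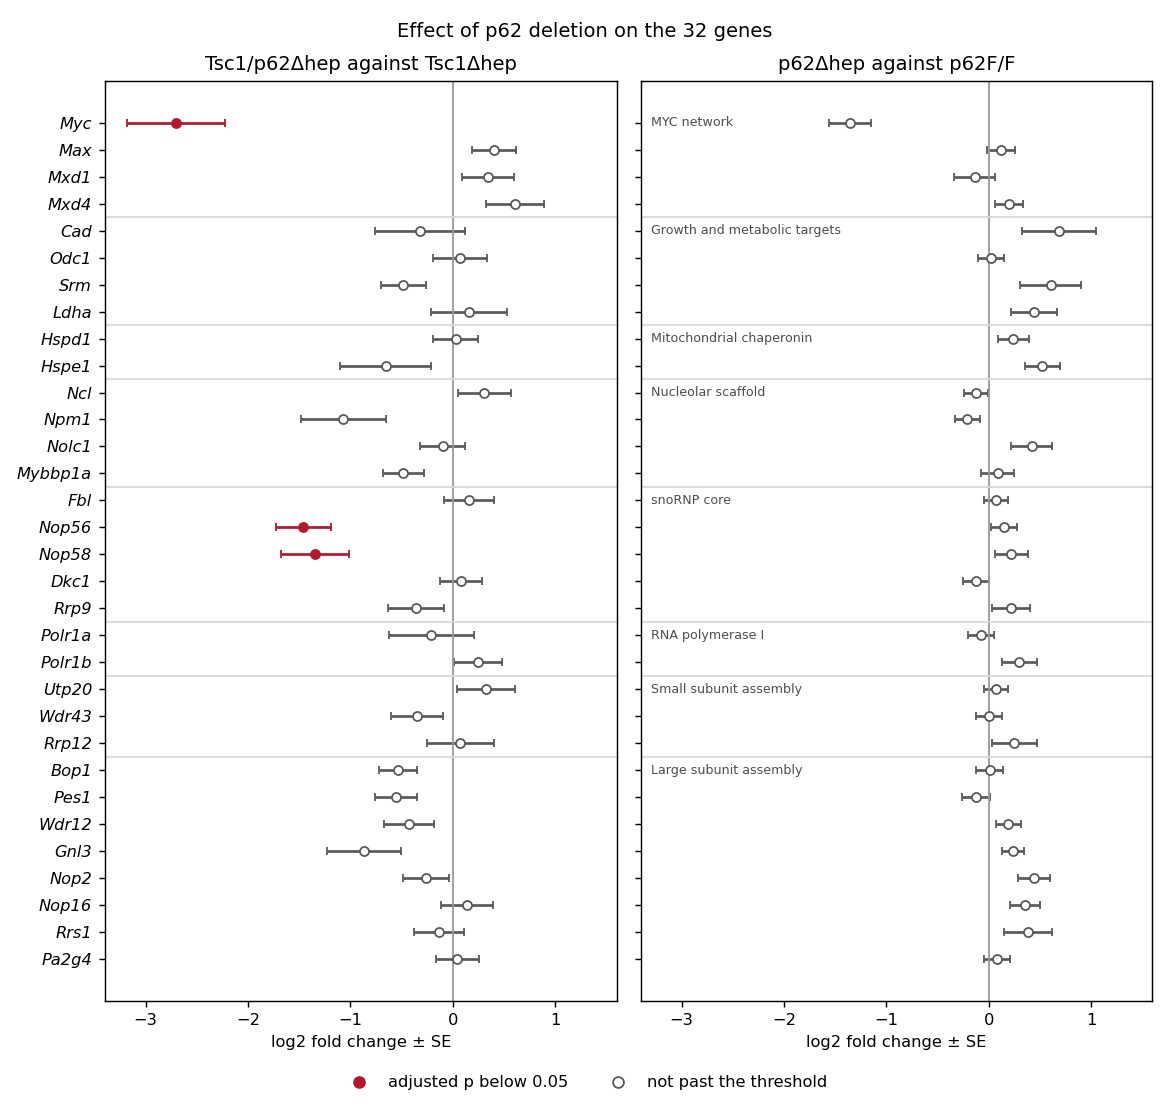
Log2 fold change ± SE by edgeR (horizontal axis) of each of the 32 genes, grouped by role, for Tsc1/p62Δhep against Tsc1Δhep (left) and p62Δhep against p62F/F (right), with positive values higher in the mice without p62. Filled red points had an adjusted p below 0.05: Myc at -2.70, Nop56 at -1.46 and Nop58 at -1.35 on the left, and none on the right, where Myc is at -1.35.

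After TMM scaling, 8 of the 32 genes had groups that did not overlap in Tsc1/p62Δhep against Tsc1Δhep. This was 25%, where 45.8% of all genes did not overlap. Of these 8 genes, 2 were higher in Tsc1/p62Δhep, Max and Mxd4, beside 22.4% of all genes. The other 6 were lower, Myc, Nop56, Nop58, Mybbp1a, Bop1 and Pes1, beside 23.3%. The scaling moved these calls. With library totals in place of TMM the median log2 fold change of all genes went to -0.40, 10 of the 32 genes passed, all lower, or 31.2% beside 31% of all genes, and 14.7% of all calls were higher rather than 38.2%. The median of the 32 minus that of all genes was -0.14 with totals and -0.13 with TMM, on the log2 scale. With TMM it was -0.22 when Tsc1/p62Δhep library 3 was left out, -0.04 when library 2 of that group was, and -0.05 when Tsc1Δhep library 3 was. With upper quartile scaling the median of all genes was -0.15, 5 of the 32 passed, all lower, or 15.6% beside 24.4% of all genes, and 30.6% of all calls were higher.

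Markers of other cells moved in this comparison too. The 16 markers of proliferating cells summed to 55.2 to 123 CPM in Tsc1/p62Δhep and 134 to 249 CPM in Tsc1Δhep. The 11 macrophage markers summed to 131 to 152 CPM in Tsc1/p62Δhep and 341 to 509 CPM in Tsc1Δhep, and the 8 cholangiocyte and progenitor markers to 86.8 to 137 CPM in Tsc1/p62Δhep and 766 to 5130 CPM in Tsc1Δhep. The highest sum of proliferation markers lay in Tsc1/p62Δhep library 3 and in Tsc1Δhep library 2, and Myc was also highest in these libraries of each group. The cholangiocyte and progenitor sum was 5130, 2201 and 766 CPM in Tsc1Δhep libraries 1 to 3, the same order as Nop56 and Nop58. In Tsc1/p62Δhep the order differed. There the sum was 102, 86.8 and 137 CPM, lowest in library 2, while Nop56 and Nop58 were lowest in library 1. The part of these cells in the values of Myc, Nop56 and Nop58 was not tested.

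With Tsc1 intact, removing p62 gave no call among the 32 genes. The comparison of p62Δhep with p62F/F had 2 genes past the threshold of 12567 by edgeR, 0.0159% of those tested, and neither was among the 32. DESeq2 called 1 of the 32, Myc, and 1.27% of all genes. At an unadjusted p below 0.05 there were 4 of the 32, Myc, Hspe1, Nop2 and Nop16, and 8.12% of all genes. The median log2 fold change of the 32 genes was 0.17, beside 0.004 for all genes, and 25 of the 32 lay above 0, where 50.7% of all genes did.

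Myc was lower in p62Δhep without passing edgeR's test. It stood at 3.54, 2.94 and 3.08 CPM in p62Δhep, against 6.71, 8.53 and 9.05 CPM in p62F/F, and the groups did not overlap. The log2 fold change was -1.35 ± 0.21, with an adjusted p of 0.233 by edgeR and 8.54e-05 by DESeq2. Leaving out 1 library moved edgeR's adjusted p between 0.0505, without p62F/F library 1, and 0.702. Of the 17 alternatives, DESeq2 alone gave a call. Handling of tissue raises the immediate early response. Its markers, a list without any of the 32 genes, summed to 223 to 344 CPM in p62Δhep and 305 to 483 CPM in p62F/F. Of the 10 markers tested here, 9 had log2 fold changes below 0, with 0 called by edgeR and 2 lower by DESeq2. In the other table the immediate early markers summed to 218 to 333 CPM in Tsc1/p62Δhep and 136 to 214 CPM in Tsc1Δhep. The markers of proliferating cells summed to 58.3 to 69.3 CPM in p62Δhep and 62.5 to 115 CPM in p62F/F. Of the 15 of them tested here, 14 had log2 fold changes below 0 and none was called. The part of either list in the value of Myc was not tested.

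Several ribosome and growth genes lay higher in p62Δhep by small amounts. Groups did not overlap for 8 of the 32, or 25%, where 13% of all genes did not. Of these, 5 were higher in p62Δhep, Hspd1, Hspe1, Gnl3, Nop2 and Nop16, beside 6.59% of all genes, and 3 were lower, Myc, Ncl and Npm1, beside 6.38%. Nop2 was at 21.0, 23.5 and 22.0 CPM in p62Δhep and 19.8, 13.5 and 15.5 CPM in p62F/F, a log2 fold change of 0.44 ± 0.16 with an adjusted p of 0.535 by edgeR. Hspe1 was at 161, 117 and 175 CPM in p62Δhep and 96.0, 106 and 111 CPM in p62F/F (log2 fold change 0.52 ± 0.17, adjusted p 0.511 by edgeR). Nop16 was at 36.8 ± 6.54 CPM in p62Δhep and 28.7 ± 2.82 CPM in p62F/F.

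Nop56 and Nop58 were not lower here. Nop56 was at 19.4, 21.6 and 19.5 CPM in p62Δhep and 20.3, 17.8 and 16.1 CPM in p62F/F, and Nop58 at 30.0, 40.6 and 37.4 CPM in p62Δhep and 35.1, 25.5 and 31.7 CPM in p62F/F. Both overlapped between the groups, with log2 fold changes of 0.15 ± 0.13 and 0.22 ± 0.16. Fbl was at 25.6 ± 2.14 CPM in p62Δhep and 24.2 ± 2.34 CPM in p62F/F. The largest positive log2 fold changes of the 32 were those of Cad, 0.69 ± 0.36, and Srm, 0.60 ± 0.29. In both genes p62Δhep library 1 lay below every p62F/F library: Cad was at 16.2, 43.5 and 47.5 CPM in p62Δhep and 22.1, 19.4 and 24.8 CPM in p62F/F. The other 2 libraries of p62Δhep were above every p62F/F library in both genes.

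**Figure D3:**
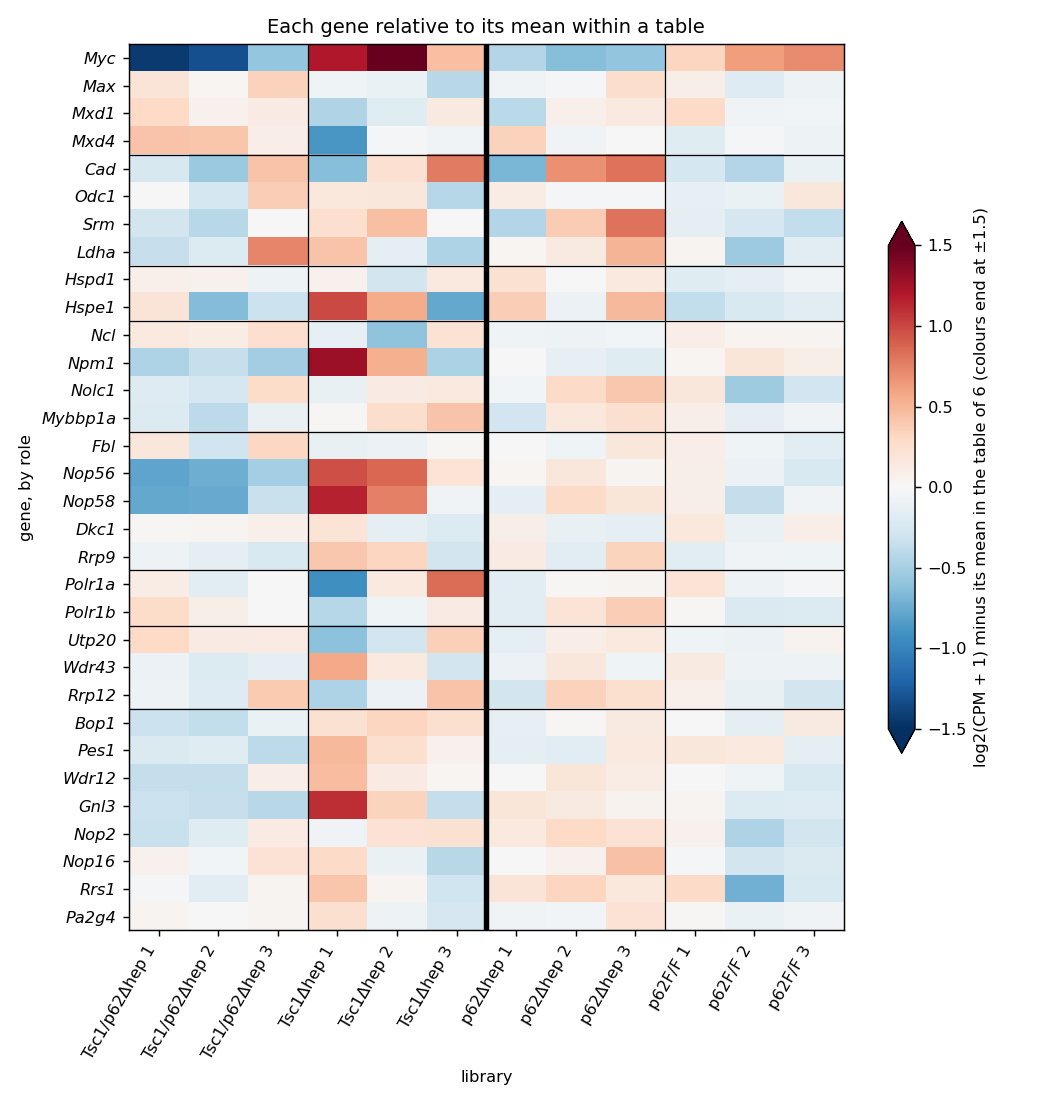
Level of each of the 32 genes (rows, by role) in each library (columns), as log2(CPM + 1) minus the gene's mean over the 6 libraries of its table, with red above and blue below the mean and colours ending at ±1.5. The thick line separates the 2 tables. The Tsc1Δhep libraries differ most among themselves, with a median coefficient of variation of 25.8%, against 10.3% in Tsc1/p62Δhep, 10.9% in p62Δhep and 10.02% in p62F/F.

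The effect of removing p62 differed between the Tsc1 backgrounds for Nop56 and Nop58. This was tested as the interaction of 1 edgeR model of all 12 libraries over 13231 genes, in which factors common to 1 table cancel out and an effect of Cre does not. Nop56 had a difference of log2 fold changes of -1.62 ± 0.29 (adjusted p 0.00497 by edgeR) and Nop58 one of -1.57 ± 0.39 (adjusted p 0.0199 by edgeR), and DESeq2 also called 2 of the 32, both lower, and 21% of all genes. They were the 2 of the 32 past the threshold, or 6.25%, beside 16.1% of all genes, 6.76% with positive and 9.32% with negative differences. Nop56 kept its call in all 21 alternatives, with adjusted p-values up to 0.0194. Nop58 lost it without p62Δhep library 2 (adjusted p 0.0523 by edgeR), p62Δhep library 3 (0.0510), p62F/F library 2 (0.0566), Tsc1/p62Δhep library 1 (0.0572) or library 2 (0.0555).

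For Myc the difference of log2 fold changes was -1.36 ± 0.52 and did not pass, with an adjusted p of 0.0950 by edgeR and 0.0672 by DESeq2. It passed with library totals (0.0408), without Tsc1/p62Δhep library 3 (0.0317) and without Tsc1Δhep library 3 (0.0183). At an unadjusted p below 0.05 there were 10 of the 32, beside 33.7% of all genes. Of the 32 genes 24 had a negative difference, where 53.3% of all genes did, and the median was -0.40 beside -0.07 for all genes. All 8 large subunit genes had a negative difference, from -1.11 for Gnl3 to -0.04 for Pa2g4, and none of them passed. In that set, the value of Pa2g4 was above 0 when the trends with GC content and length were removed. With library totals 11 of the 32 passed, or 34.4% beside 21.2% of all genes, the median of all genes was -0.39, and 14.9% of all calls were positive rather than 42.0%. Without Tsc1Δhep library 3, 10 of the 32 passed, or 31.2% beside 36.8% of all genes.

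Across the 2 tables, levels can be set side by side but not tested, because the table and the Tsc1 genotype cannot be told apart. By mean level, 14 of the 32 genes were highest in Tsc1Δhep, 11 in p62Δhep, 6 in Tsc1/p62Δhep and 1 in p62F/F. With library totals without Rn45s, the ribosomal RNA precursor, in place of TMM, the same counts were 20, 11, 0 and 1. Of the 22 nucleolar, snoRNP, polymerase and assembly genes, 12 were highest in Tsc1Δhep and 17 stood above p62F/F there, with a median log2 ratio of 0.28 to p62F/F beside 0.01 for all genes. The largest ratio was that of Gnl3, with a log2 ratio of 1.11, followed by Bop1 at 1.00. Shares of all genes highest in each group, or above p62F/F in Tsc1Δhep, were not counted. The counts given here therefore have no background to be read against.

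The snoRNP genes showed different orders of the 4 groups. Mean Nop56 was 12.0 ± 1.40 CPM in Tsc1/p62Δhep, 32.9 ± 8.80 CPM in Tsc1Δhep, 20.2 ± 1.23 CPM in p62Δhep and 18.1 ± 2.13 CPM in p62F/F, so the Tsc1/p62Δhep libraries lay below every other library of the 12. Nop58 had the same order, at 20.5 ± 3.77 CPM in Tsc1/p62Δhep, 52.0 ± 20.7 CPM in Tsc1Δhep, 36.0 ± 5.44 CPM in p62Δhep and 30.7 ± 4.87 CPM in p62F/F. Fbl was at 13.1 ± 2.98 CPM in Tsc1/p62Δhep and 11.8 ± 0.590 CPM in Tsc1Δhep, both below the 25.6 ± 2.14 CPM of p62Δhep and 24.2 ± 2.34 CPM of p62F/F. Nhp2l1 was likewise at 2.94 ± 0.430 CPM in Tsc1/p62Δhep and 7.28 ± 2.67 CPM in Tsc1Δhep, and at 21.7 ± 2.34 CPM in p62Δhep and 20.3 ± 1.59 CPM in p62F/F. The libraries of the tables did not overlap for Fbl or Nhp2l1. Mean Myc was 2.17 ± 1.09 CPM in Tsc1/p62Δhep, 14.2 ± 6.09 CPM in Tsc1Δhep, 3.19 ± 0.313 CPM in p62Δhep and 8.10 ± 1.23 CPM in p62F/F, where the p62F/F libraries overlapped those of Tsc1Δhep.

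The Tsc1Δhep libraries differed among themselves along transcript length, and these genes followed that. The median coefficient of variation of the 32 genes was 25.8% in Tsc1Δhep, beside 30.6% for all genes. From library 1 to library 3, the median log2 ratio of all genes was -0.68 in the 20% of genes with the shortest transcripts, up to 1719 bases, and 0.68 in the 20% with the longest, from 4923 bases. Over the 32 genes the ratio had a Spearman rho of 0.71 with length, as a description of 1 pair of libraries, against 0.49 over 12526 genes. In the other 3 groups, the medians of the shortest and longest 20% were within 0.20 of 0 for every pair of libraries.

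Most long and short members went opposite ways. Of the 5 members in the longest 20%, 4 were higher in library 3 than in library 1, and of the 7 in the shortest 20%, 6 were lower. The exceptions were Wdr12, the longest of the 32, with a log2 ratio of -0.43, and the short Fbl, at 0.12. Polr1a, the largest subunit of RNA polymerase I, stood at 12.2, 26.6 and 43.5 CPM in Tsc1Δhep libraries 1 to 3. The long genes Cad and Utp20 were also highest in library 3, as was Rrp12, of 4340 bases and outside the longest 20%. The short genes Npm1, Hspe1 and Nop58 were highest in library 1, as was Gnl3, of 1947 bases and outside the shortest 20%. In Tsc1/p62Δhep against Tsc1Δhep, the median log2 fold change of all genes was -0.39 in the shortest 20% and 0.26 in the longest. When the trend with GC content and length was removed from each library and limma was used, Myc (log2 fold change -2.0, adjusted p 0.00369), Nop56 (-1.21, adjusted p 0.00395) and Nop58 (-1.02, adjusted p 0.0114) were still past the threshold. Bop1 and Mybbp1a were then lower and Max higher, 6 of the 32 in all, or 18.8% beside 31.9% of all genes. Without Tsc1Δhep library 3, 10 of the 32 passed edgeR's test, or 31.2% beside 45.3% of all genes, of which Utp20 was higher and the other 9 lower.

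**Figure D4:**
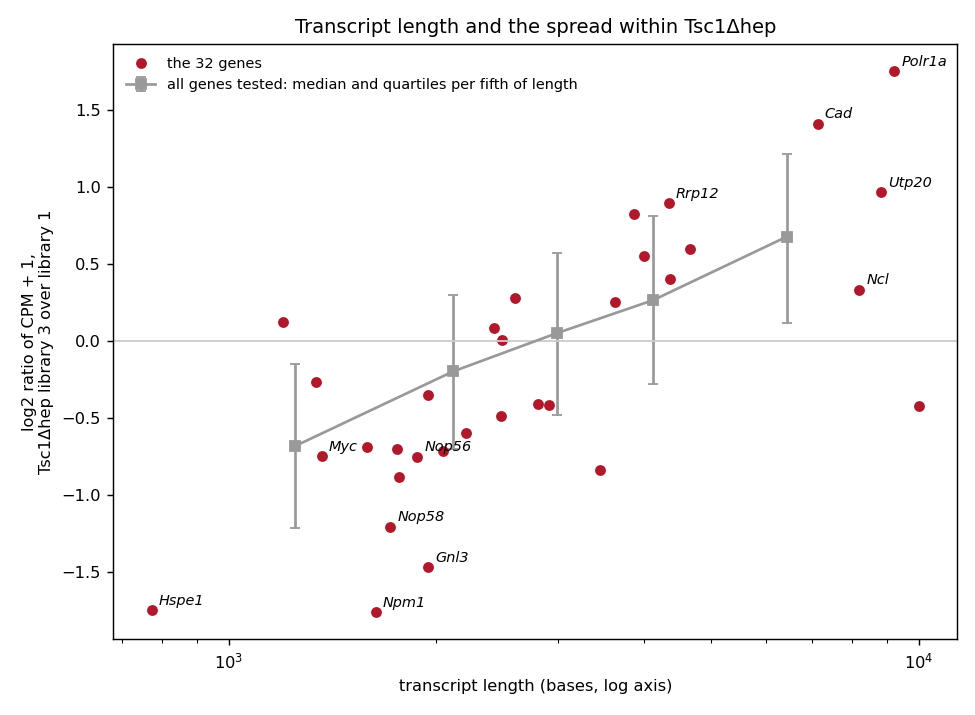
Log2 ratio of CPM + 1 in Tsc1Δhep library 3 over library 1 (vertical axis) against transcript length in bases (horizontal, log axis). Red points are the 32 genes, and grey squares with whiskers are the median and quartiles of all genes tested in each of 5 bins of length. The grey medians go from -0.68 to 0.68, and Npm1, Hspe1 and Gnl3 lie at the low end and Polr1a and Cad at the high end.

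The wider ribosome biogenesis machinery had few calls. Of 112 further genes in 4 lists, for RNA polymerase I, the small subunit processome, large subunit factors and snoRNPs, 10 fell and 1 rose in Tsc1/p62Δhep against Tsc1Δhep, 9.82% beside 24.2% of all genes, with a median log2 fold change of -0.25. Of 41 large subunit factors 3 fell and 1 rose. Nol12, of rRNA processing, was at 8.99 ± 0.915 CPM in Tsc1/p62Δhep and 22.2 ± 4.97 CPM in Tsc1Δhep (adjusted p 0.0109 by edgeR), and Brix1, of large subunit assembly, at 22.7 ± 1.36 CPM in Tsc1/p62Δhep and 48.0 ± 15.4 CPM in Tsc1Δhep (adjusted p 0.0275). The helicase gene Ddx24 rose, at 48.7 ± 1.99 CPM in Tsc1/p62Δhep and 27.5 ± 5.55 CPM in Tsc1Δhep (adjusted p 0.0284 by edgeR).

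Of 39 small subunit genes 2 fell. They were the helicase gene Dhx37, at 14.1 ± 1.19 CPM in Tsc1/p62Δhep and 37.5 ± 16.6 CPM in Tsc1Δhep, and Rrp7a, at 17.2 ± 0.549 CPM in Tsc1/p62Δhep and 27.7 ± 3.95 CPM in Tsc1Δhep. Of 19 genes of the RNA polymerase I machinery 2 fell, Polr2e and Polr2f, whose subunits are shared with other nuclear RNA polymerases, with log2 fold changes of -1.39 ± 0.35 and -1.13 ± 0.34. In the interaction, 10 of the 112 had a negative and 1 a positive difference past the threshold, 9.82% beside 16.1% of all genes. Ppan, of large subunit assembly, was the one with the smallest p among the 41 factors, at -1.46 ± 0.27 (adjusted p 0.00573 by edgeR).

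Of 22 other genes of the MYC network, 3 fell and 1 rose in Tsc1/p62Δhep against Tsc1Δhep, 18.2% beside 24.2% of all genes. Mxd3, an MXD protein known from cells in S phase, had 2, 0 and 0 counts in Tsc1/p62Δhep libraries 1 to 3 and 24, 35 and 14 counts in Tsc1Δhep (adjusted p 0.0168 by edgeR). The kinase gene Cdk4 was at 32.95 ± 3.31 CPM in Tsc1/p62Δhep and 59.1 ± 14.1 CPM in Tsc1Δhep, a log2 fold change of -0.85 ± 0.24. Mxi1, a further repressor that pairs with MAX, rose, at 40.4 ± 0.675 CPM in Tsc1/p62Δhep and 24.2 ± 4.22 CPM in Tsc1Δhep (log2 fold change 0.74 ± 0.21, adjusted p 0.0385 by edgeR).

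Of 24 nucleotide synthesis genes 5 fell and 3 rose, 33.3% beside 24.2% of all genes. The CTP synthetase genes were among those that fell, Ctps at 7.98 ± 1.37 CPM in Tsc1/p62Δhep and 34.9 ± 13.8 CPM in Tsc1Δhep (log2 fold change -2.13 ± 0.36), and Ctps2 at 15.1 ± 2.86 CPM in Tsc1/p62Δhep and 37.2 ± 1.69 CPM in Tsc1Δhep (-1.31 ± 0.22). Adssl1, an adenylosuccinate synthase gene, rose, at 19.8 ± 1.05 CPM in Tsc1/p62Δhep and 5.04 ± 2.22 CPM in Tsc1Δhep. Of 16 genes of glycolysis and lactate 5 fell, 31.2% beside the same background. Pfkp, the platelet form of phosphofructokinase, stood at 1.17, 1.91 and 1.20 CPM in Tsc1/p62Δhep and 77.1, 59.7 and 92.8 CPM in Tsc1Δhep (log2 fold change -5.74 ± 0.33, adjusted p 0.000366 by edgeR). Aldolase A, Aldoa, and the lactate transporter Slc16a1 also fell, whereas Ldha did not pass.

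Of 11 polyamine genes 2 rose and 1 fell, 27.3% beside 24.2% of all genes. Paox, the oxidase that breaks polyamines down, was at 9.82 ± 2.62 CPM in Tsc1/p62Δhep and 2.53 ± 0.495 CPM in Tsc1Δhep, and Mtap, which salvages a by-product of their synthesis, fell, at 32.2 ± 4.68 CPM in Tsc1/p62Δhep and 57.0 ± 11.3 CPM in Tsc1Δhep. Of 21 mitochondrial chaperone and import genes 2 fell, or 9.52%, below that background, Timm50 and Tomm22, with log2 fold changes of -0.87 ± 0.20 and -1.30 ± 0.33. Of 22 translation initiation genes 3 fell and 1 rose, 18.2%, also below it. Eif6, which keeps the large subunit from joining the small one, was at 49.2 ± 2.82 CPM in Tsc1/p62Δhep and 103 ± 25.5 CPM in Tsc1Δhep (adjusted p 0.0174 by edgeR), whereas Eif5 rose, at 352 ± 28.3 CPM in Tsc1/p62Δhep and 178 ± 35.1 CPM in Tsc1Δhep. In p62Δhep against p62F/F no gene of these 10 lists was called by edgeR or by DESeq2, beside 0.0159% and 1.27% of all genes. An unadjusted p below 0.05 by edgeR was seen for 0 to 3 genes of each list, beside 8.12% of all genes. Of the 112 biogenesis genes 87 had log2 fold changes above 0 there, where 50.7% of all genes did. Their median was 0.09, beside 0.004 for all genes.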

How the data were processed

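Poly(A) RNA of 12 liver samples was sequenced, per the labels' protocols, with a kit that keeps strand. The authors deposited 2 tables of counts per gene symbol, of 6 libraries each, whose values were whole numbers with no normalization. The sources used here do not give the aligner, counter, annotation or use of strand, and the submitters' processing notes name the build hg19 although the symbols are those of mouse. Of 23420 symbols 99.3% matched the RefSeq table, and replicate libraries of a group differed by more than sampling noise.

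Each table was fitted by itself with edgeR 4.0.16 (R 4.3.3): filterByExpr (a minimum of 10 counts, after scaling, in as many libraries as a group has, and 15 in all), TMM scaling, the quasi-likelihood test and Benjamini-Hochberg adjustment at 0.05, unpaired, and the interaction in 1 fit of the 12 libraries. SE is that of edgeR's log2 fold change, derived from its F statistic. Printed levels use TMM over the 12 libraries and differ from scaling within a table by ratios of 0.965 to 1.04. Rn45s took 0.0751% to 3.50% of the counts. Alternatives were DESeq2 1.42.0, limma 3.58.1 on log2(CPM + 1), other scalings, no filter, libraries left out, a replicate block and removal of trends with GC content and transcript length (GENCODE principal transcripts). The steps were tested on simulated data with the same spread in every group, so the wider spread of Tsc1Δhep was not covered.

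The 32 genes, the further lists and the comparisons were chosen with earlier results of these data known. Besides the 32, the rule named up to 3 genes of each list with the smallest p among those past the threshold. The genes Bop1, Dkc1, Gnl3, Mybbp1a and Nop56 share exon bases with a counted gene on the other strand, and reads of genes with processed copies, such as Npm1, Hspe1 and Ldha, could be split, so their single values are uncertain.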

Additional observations from a re-analysis of the deposited data

Results flagged for a closer look

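The effect of p62 deletion differed between livers without and with Tsc1 for Nop56, with a difference of log2 fold changes of -1.62 (-1.46 in Tsc1/p62Δhep against Tsc1Δhep and 0.15 in p62Δhep against p62F/F), by the interaction test of edgeR. It also differed for Nop58, by -1.57 (-1.35 in Tsc1/p62Δhep against Tsc1Δhep and 0.22 in p62Δhep against p62F/F). Groups of 3 libraries are too small for a check of single outlying samples.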

How the results depend on the processing

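Over the alternatives, Myc, Nop56 and Nop58 kept a negative log2 fold change in Tsc1/p62Δhep against Tsc1Δhep, and Myc kept its call in all 17. Replicate numbers did not pair the libraries. Deviations of same-numbered libraries correlated at -0.41, -0.51 and 0.04 between p62Δhep and p62F/F. Between Tsc1/p62Δhep and Tsc1Δhep they correlated at -0.08, -0.08 and -0.13. Some differently numbered libraries deviated together, p62Δhep library 1 with p62F/F library 2 at 0.53 and p62Δhep library 2 with p62F/F library 1 at 0.40. What these libraries share was not tested, and the fits do not model it. With the replicate block, 1847 genes were called rather than 3053 in Tsc1/p62Δhep against Tsc1Δhep and 1 rather than 2 in p62Δhep against p62F/F, and Nop58 lost its call (adjusted p 0.0787 by edgeR). Causes of the changes below were not tested.

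In Tsc1/p62Δhep against Tsc1Δhep, members called lower were 3 in the reported fit, where 3053 of all genes were called. They were 5 with upper quartile scaling (3074 genes called), 10 with library totals (3913) and 5 with GC content and length removed (3994, and 1 member higher). They were 8 with all 12 libraries in 1 fit (5201 genes called) and 6 without Tsc1Δhep library 3 and Tsc1/p62Δhep library 1 (3344). Uncalled genes changed sign, as log2 fold changes: with upper quartile scaling Odc1 -0.0304, Hspd1 -0.0686, Dkc1 -0.0129, Rrp12 -0.0293 and Pa2g4 -0.0511, with library totals Mxd1 -0.0212, Odc1 -0.272, Ldha -0.184, Hspd1 -0.326, Ncl -0.058, Fbl -0.198, Dkc1 -0.259, Polr1b -0.116, Utp20 -0.0534, Rrp12 -0.304, Nop16 -0.198 and Pa2g4 -0.295, with GC content and length removed Utp20 -0.0477 and Rrs1 0.0442, and without the pair of libraries Cad 0.182, Odc1 -0.0557, Nolc1 0.0465, Polr1a 0.237 and Pa2g4 -0.0363. Leaving out 1 library gave 1111 to 5825 genes, 1 to 9 members lower and 0 to 1 higher, with ranges of -0.276 to 0.010 for Nolc1, -0.104 to 0.218 for Odc1, -0.244 to 0.448 for Ldha, -0.129 to 0.387 for Rrp12, -0.28 to 0.0833 for Rrs1, -0.0916 to 0.134 for Hspd1, -0.67 to 0.0914 for Cad, -0.556 to 0.3001 for Polr1a, -0.00202 to 0.361 for Nop16 and -0.040 to 0.203 for Pa2g4.

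In p62Δhep against p62F/F, 180 genes were called by DESeq2 (1 member, lower), 4 by limma, 4 with GC content and length removed, 1 with all 12 libraries and 108 without library 1 of both groups. Signs changed for Wdr43 -0.0103 and Bop1 -0.0036 with upper quartile scaling, Wdr43 -0.0153 and Bop1 -0.0133 with library totals, Bop1 -0.0208 with GC content and length removed, and Mxd1 0.153, Odc1 -0.0819, Polr1a 0.080 and Tsc1 -0.183 without library 1 of both groups. Leaving out 1 library gave 1 to 49 genes, the 49 without p62F/F library 1, with ranges of -0.244 to 0.0309 for Mxd1, -0.0334 to 0.134 for Odc1, -0.103 to 0.198 for Tsc1, -0.0826 to 0.0774 for Wdr43, -0.0147 to 0.238 for Mybbp1a, -0.0584 to 0.0941 for Bop1, -0.0121 to 0.136 for Pa2g4 and -0.134 to 0.0137 for Polr1a.

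In the interaction, 11 members were called lower with library totals rather than 2, and 2810 of all genes were called rather than 2127. Signs changed for Polr1a 0.023 with limma, Odc1 -0.0445 and Fbl -0.00199 with upper quartile scaling, Max -0.0472, Odc1 -0.278, Fbl -0.254, Dkc1 -0.127 and Utp20 -0.0941 with library totals, and Utp20 -0.0959 and Pa2g4 0.00107 with GC content and length removed. Leaving out 1 library gave 1169 to 4952 genes, 1 to 8 members lower and 0 to 2 higher, with ranges of -0.203 to 0.0878 for Polr1b, -0.136 to 0.111 for Pa2g4, -0.144 to 0.185 for Odc1, -0.0536 to 0.259 for Fbl, -0.695 to 0.00189 for Ldha, -0.491 to 0.368 for Polr1a and -0.392 to 0.129 for Rrp12. Of 128 mean levels, 19 moved by more than 1 SD with library totals without Rn45s.

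The 3 libraries of a group, the spread within Tsc1Δhep and the low counts of Myc in Tsc1/p62Δhep limit the precision of these values.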
